A study of Canis lupus familiaris with 17 samples.

Results

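The transcription factors TBX21, EOMES, GATA3, RORA, FOXP3, IKZF2, LEF1, TCF7 and SOX5 were chosen by their gene symbols, and each symbol matched exactly 1 of the 20257 genes counted in all 17 matrices. The 9 genes were followed through circulating T and NK cells of 17 dogs, 7 healthy and 10 with osteosarcoma (OS), a malignant bone tumor. All dogs were wild type by their labels and client-owned, those with OS carried a primary tumor and had received no treatment, and the ages of the OS dogs spanned a wider range that took in those of the healthy dogs. Blood leukocytes were taken from the interface of a Ficoll density gradient, and remaining red cells were then lysed. From each dog 1 library of 3' single-cell RNA sequencing was made, so each dog is 1 replicate.

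These factors are the classical switches of lymphocyte fate. TBX21 (T-bet) drives the Th1 program, with interferon-gamma as its best known product, and works with its relative EOMES in cytotoxic CD8 T cells and NK cells. GATA3 directs Th2 cells and is also needed for early T cell development, RORA takes part in the Th17 program, and FOXP3 defines regulatory T cells (Treg), many of which also hold IKZF2 (Helios). LEF1 and TCF7 are the high mobility group factors of Wnt signaling that keep T cells naive or long-lived, and SOX5 is a high mobility group factor of the SoxD family better known from cartilage, nerve and B cells.

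Across the dogs 1332 to 7748 barcodes and 7740230 to 56510134 unique molecular identifiers (UMIs, counted once per captured RNA molecule) were present per library. No pair of dogs shared more than 22 barcodes, at most 0.375% of the smaller library. Clustering kept 40117 T and NK cells, among them 24239 CD4 T and 13667 CD8 T cells, of which 3679 CD4 and 2878 CD8 T cells lay in clusters without a class name. A class name rests on a cluster's levels of CD3E, CD4 and CD8A and on the marker list that stood highest in it, and the 9 factors were among 60 genes that took no part in clustering or naming. The CD8 naive class was 1 cluster that stood highest for the CD4 naive list and was placed with CD8 T cells by its CD8A (82.7 CPM, UMI counts scaled to the same total) and CD4 (7.45 CPM). The classes were CD4 naive (8347 cells), central memory (TCM, 600), effector memory (TEM, 1325), Th1-like (3130), Th2-like (2357), Th17-like (1845), Treg (2755) and interferon signature (201), CD8 naive (2760), effector (7437) and memory (592), CD8+ gamma-delta (gd) T (243), CD4- CD8- double-negative (DN) T (957), gd T (396), NK (399) and cycling T (216). Pooled CD3E was 1202 CPM in gd T, 904 CPM in DN T and 125 CPM in NK cells, with CD4 at 9.34 CPM or less in all 3, levels that the naming itself used and that are no check of the names. A further 2775 cells, 6.26% of the cells clustered as T and NK, sat in clusters with little CD3E and were left out.

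The genes differed widely in how often they were caught, from 266 UMIs of FOXP3 and 1454 of SOX5 to 209431 of LEF1 in all T and NK cells. With 3' counting, levels were compared only within a gene and not between genes. A level below is the CPM of all cells of a class summed within a dog, given as mean ± SD over dogs with at least 25 such cells, an order of levels covers the 13 classes with at least 4 such dogs, and a share of cells is the share with at least 1 UMI after each cell was thinned to 2000 UMIs. Unthinned medians ran from 4518 UMIs per cell in DN T to 7345 in CD8+ gd T cells, with cycling T cells apart at 12312, and 600 cells under 2000 UMIs (1.5%) were not used for shares. Shares in B cells and monocytes of the same dogs, median depths 4025 and 11114 UMIs, are given for comparison.

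**Figure D1:**
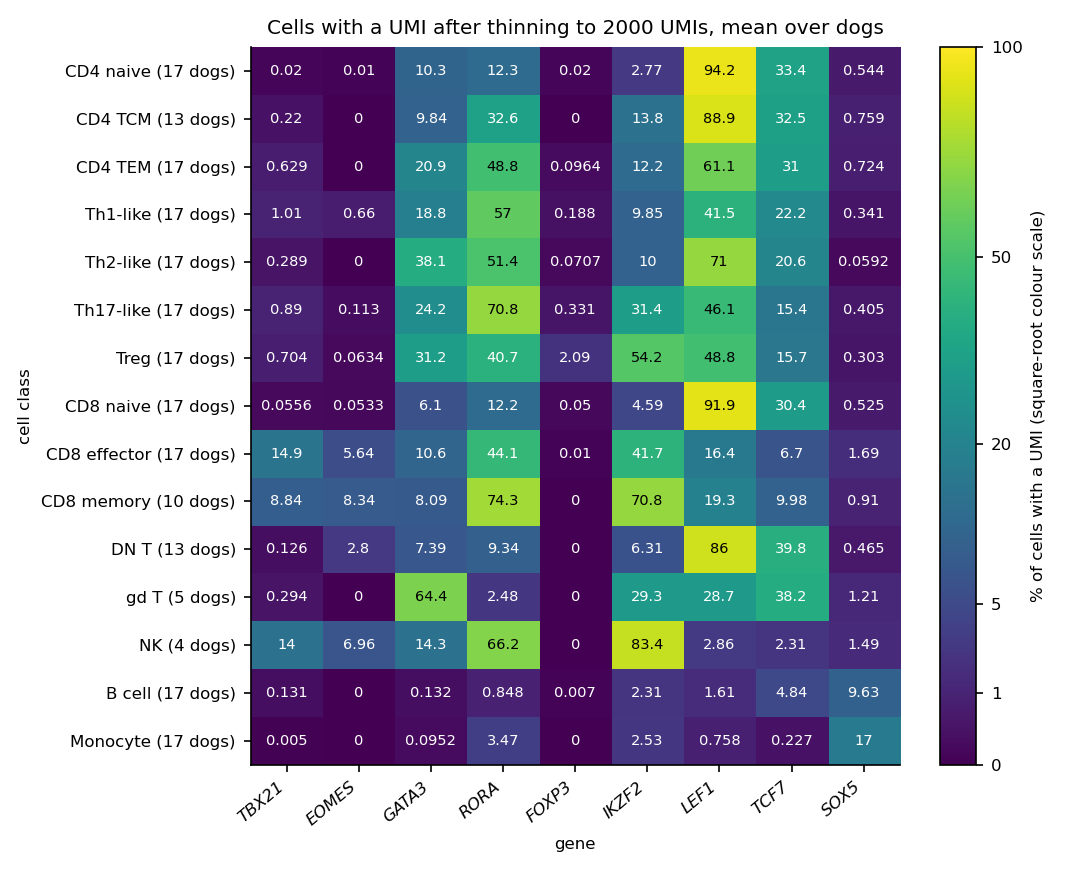
Heat map of the share of cells (percent, square-root color scale) with at least 1 UMI of each transcription factor (columns) by cell class (rows), after thinning every cell to 2000 UMIs, averaged over dogs. FOXP3 peaks in Treg cells at 2.09%, LEF1 in naive CD4 T cells at 94.2% and GATA3 in gd T cells at 64.4%, whereas SOX5 is higher in monocytes (17%) and B cells (9.63%) than in every T and NK class shown.

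TBX21 and EOMES marked the cytotoxic side. In effector CD8 T cells TBX21 stood at 43.3 CPM in the lowest, 75.3 in the median and 121 in the highest of 17 dogs (78.6 ± 19.2 CPM, SD). In NK cells it was 39.9 CPM in OS2, 65.2 in H3, 85.2 in H5, 94.1 in H4 and 98.8 in OS6 (76.6 ± 24.2 CPM, n = 5), so the NK and effector ranges overlapped and the difference was within its spread over dogs. Memory CD8 T cells, marked by GZMK, held 42.4 ± 17.3 CPM (n = 10), less than effector cells in each of those 10 dogs. Below these came Th1-like cells at 5.57 ± 2.85 CPM and Th17-like cells at 4.72 ± 4.45 CPM (n = 17 each), which did not differ beyond their spread, and naive CD4 T cells at 0.117 ± 0.180 CPM. A UMI of TBX21 was seen in 14.9 ± 3.28% of effector CD8 T cells against 0.131% of B cells, and 66.3% of all TBX21-positive T and NK cells were effector CD8 T cells.

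EOMES followed another order. NK cells were highest with 34.9, 41.7, 49.4, 58.7 and 94.1 CPM in their 5 dogs (55.8 ± 23.2 CPM), followed by memory CD8 T cells at 40.5 ± 18.6 CPM (n = 10) and effector CD8 T cells at 32.3 ± 9.20 CPM (n = 17), which did not differ beyond their spread. In effector cells OS4 stood at 4.44 CPM, while the median was 33.0 and the highest dog 48.0 CPM. DN T cells, which held almost no TBX21, came next in the order with EOMES at 9.27 CPM in the lowest, 14.5 in the median and 28.9 in the highest of 13 dogs (16.6 ± 5.77 CPM), above Th1-like cells (4.05 ± 2.09 CPM) in all 13. EOMES was not counted in gd T cells (0 of 390 thinned cells, which allows a share of up to 0.769%) or in CD4 TCM cells (0 of 594, up to 0.505%), limits that cover counting error only. Its share of positive cells was 8.34 ± 5.69% in memory CD8 T cells against 0 of 6633 B cells (up to 0.0452%) and 0 of 14480 monocytes (up to 0.0207%).

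**Figure D2:**
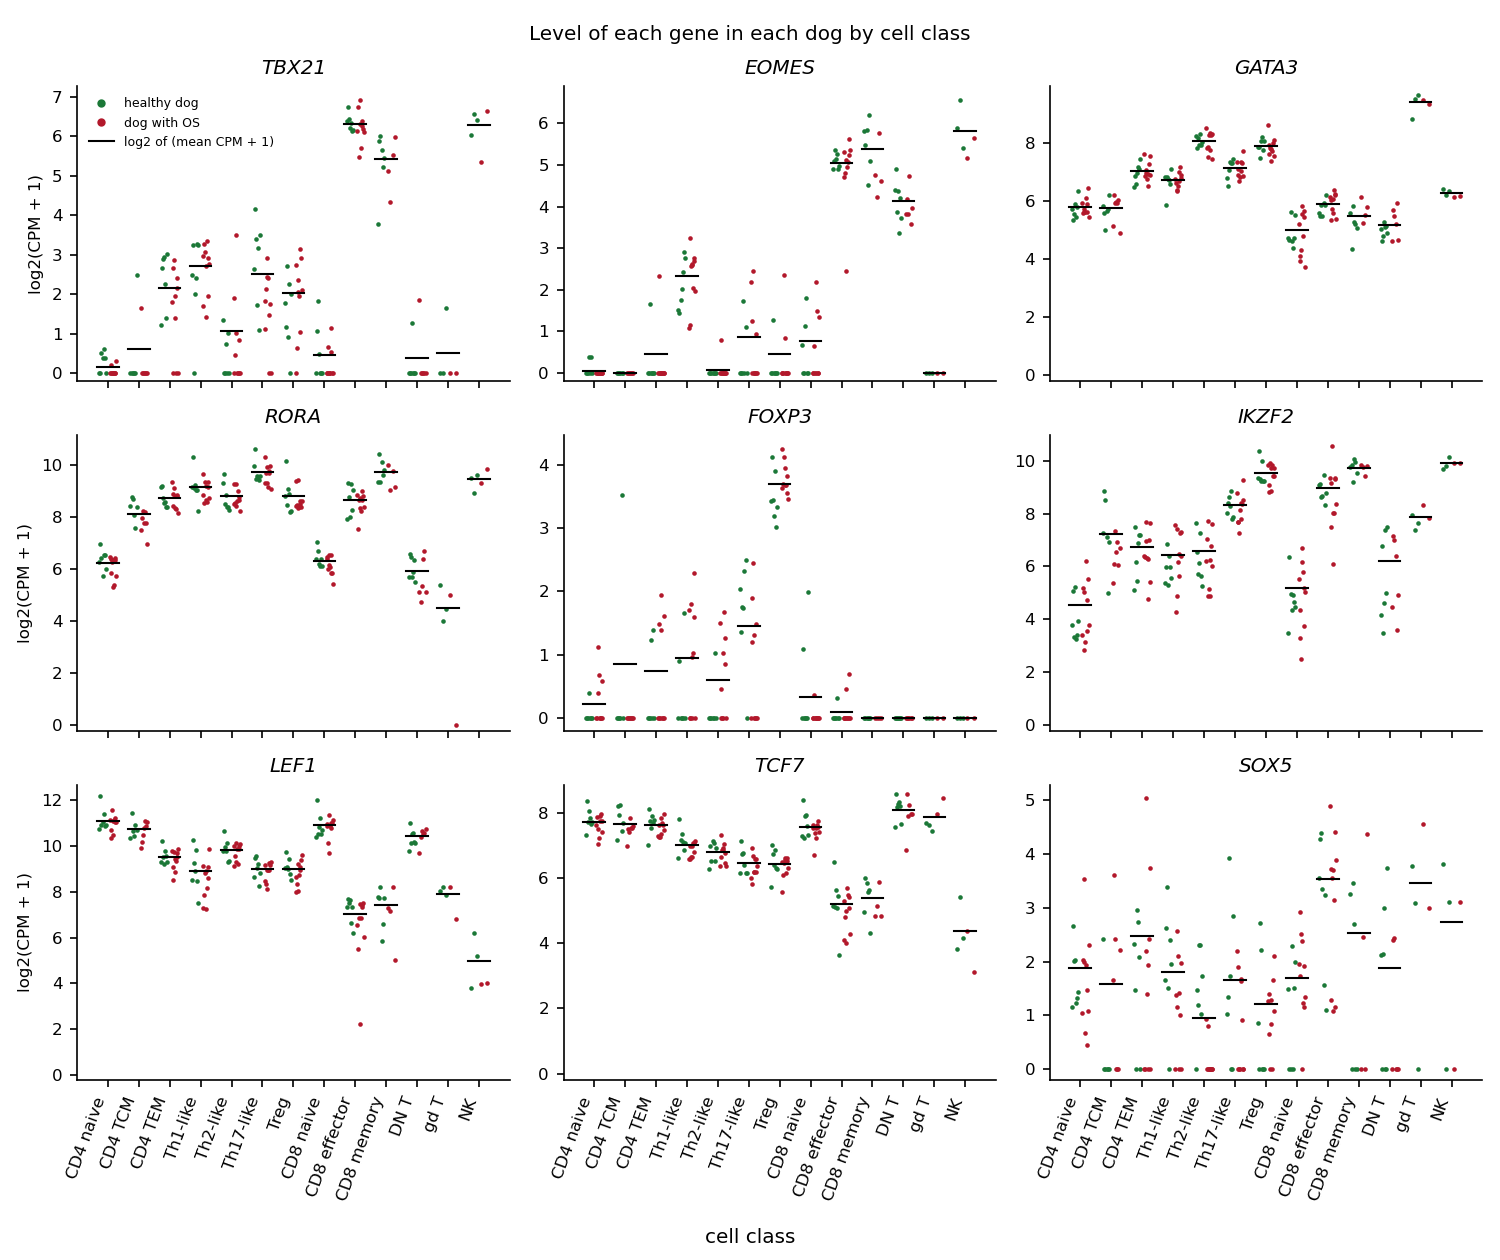
Level of each transcription factor in 13 cell classes as log2(CPM + 1) of per-dog sums, where each point is a dog (healthy or OS by color) and the line is log2 of the mean CPM plus 1. TBX21 overlaps between effector CD8 T and NK cells, GATA3 in gd T cells lies at 457 to 819 CPM, and H2 carries the highest LEF1 in naive CD4 T cells (4526 CPM).

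Contrasts between classes were tested on sums per dog with the dog as a block, and a gene was called at an adjusted p under 0.01 with an absolute log2 fold change over 0.58. The classes come from other genes of the same cells, so these contrasts describe the classes rather than test them independently. The study's own lists also held GATA3 for gd T and Th2-like, RORA for Th17-like, IKZF2 for Treg and LEF1 for naive cells. The list genes used here come from those same classes, so a high level of such a factor in its class is no independent finding. In CD8 T against CD4 T cells, where 15.5% of all genes tested were called, 4 of the 9 factors were higher and 4 lower. TBX21 was 18.8 CPM in the lowest, 54.6 in the median and 95.1 in the highest dog in CD8 T cells against 1.07, 2.43 and 4.10 CPM in CD4 T cells, with no overlap (log2 fold change 4.17 ± 0.09, SE, adjusted p = 1.00e-20 by edgeR, higher in 17 of 17 dogs). EOMES rose by 4.31 ± 0.17 and IKZF2 by 1.03 ± 0.14 (16 of 17 dogs), and SOX5 by 1.62 ± 0.25 (14 of 17 dogs). FOXP3 (-3.88 ± 0.32), GATA3 (-1.36 ± 0.06), LEF1 (-1.29 ± 0.18) and TCF7 (-1.17 ± 0.13) were lower in CD8 T cells in all 17 dogs. RORA did not pass (-0.19 ± 0.11, adjusted p = 0.198).

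The same contrast was drawn without clusters, from cells with a UMI of a T cell gene and of CD4 or CD8A but not both (14210 CD4 and 7966 CD8 cells). There 15.7% of genes were called and again 4 factors were higher and 4 lower. TBX21 was higher by 3.78, EOMES by 4.17, IKZF2 by 1.51 and SOX5 by 1.11 on the log2 scale, and GATA3 was lower at -0.82, FOXP3 at -2.95, LEF1 at -1.50 and TCF7 at -1.16. RORA was at 0.01. Of the gated CD4 cells, 95.2% lay in T and NK clusters and 1.40% in monocyte clusters, of which 2 of 3 held CD4 (263 and 129 CPM) and the largest little (3.28 CPM).

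Within the cytotoxic classes, NK against CD8 T cells (5 dogs, 5.76% of genes called) gave 3 factors higher and 2 lower of 8 tested. EOMES (1.09 ± 0.27, adjusted p = 0.00446), RORA (1.15) and IKZF2 (1.56) were higher, and LEF1 (-4.58) and TCF7 (-2.47) lower. The EOMES call was lost when H4 (adjusted p = 0.0411 by edgeR), OS2 (0.0241) or OS6 (0.0658) was left out. It was also lost without correction across dogs (0.92, 0.0523) and in healthy dogs only (0.78, 0.213), of which just 3 had enough NK cells. With doublets kept RORA stood at 0.58 and was not called. TBX21 (0.71, adjusted p = 0.0290) and GATA3 (0.59, 0.0477) missed the threshold, as did SOX5 (0.50, 0.730), and FOXP3 was not tested. Effector against memory CD8 T cells (10 dogs, 3.55% of genes called) had TBX21 higher by 0.88 ± 0.15 in 10 of 10 dogs, with RORA (-0.89) and IKZF2 (-0.66) lower, while EOMES (-0.12, adjusted p = 0.806), GATA3 (0.44), LEF1 (-0.27), TCF7 (-0.22) and SOX5 (1.03) did not pass and FOXP3 was not tested. With doublets kept IKZF2 was at -0.51 and not called.

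**Figure D3:**
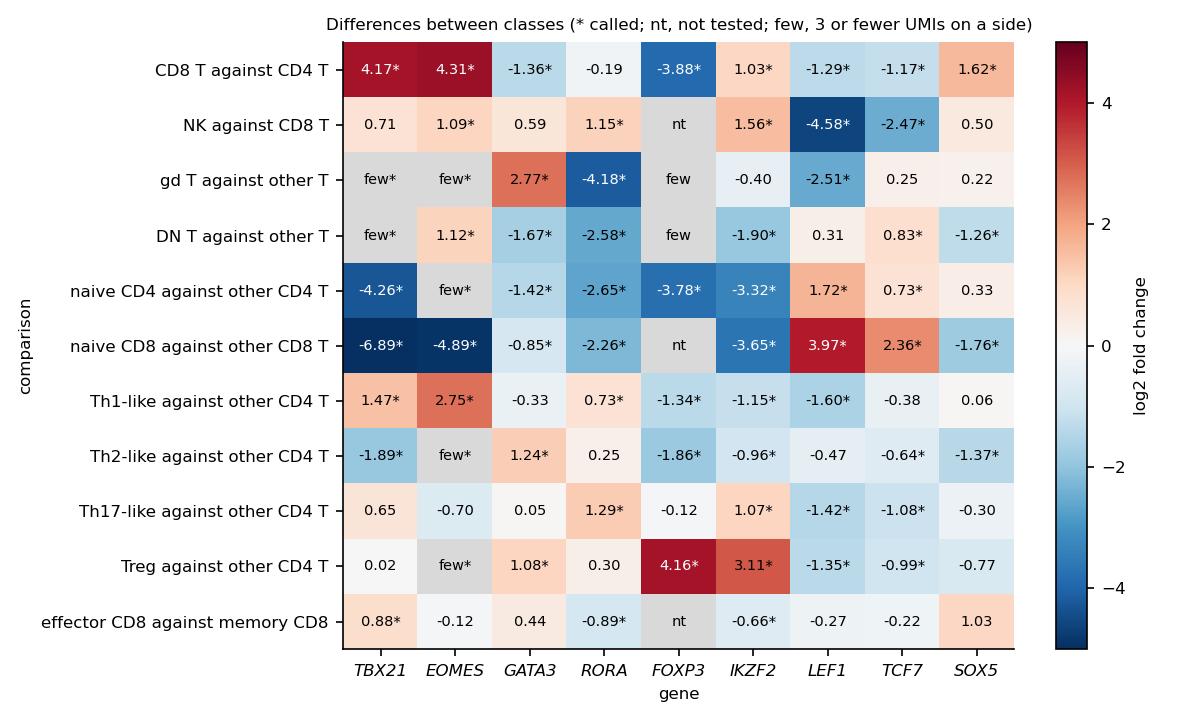
Heat map of the log2 fold change of each transcription factor (columns) in 11 contrasts between T and NK cell classes (rows), with an asterisk for called genes, nt for not tested and few where a side had 3 or fewer UMIs. LEF1 and TCF7 are higher together in both naive contrasts and lower together in NK, Th17-like and Treg cells, while in DN T cells EOMES is higher and TBX21 has too few UMIs for a fitted fold.

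GATA3 was highest outside the Th2-like class. The 5 dogs with enough gd T cells had 457 (H2), 659 (OS7), 727 (OS6), 739 (H4) and 819 CPM (H5), a mean of 680 ± 137, above every other class with at least 4 dogs and above Th2-like cells in 5 of 5 dogs. Th2-like cells (269 ± 56.2 CPM, from 173 to 372) and Treg cells (240 ± 54.9 CPM, from 167 to 400) did not differ beyond their spread. Treg cells exceeded Th17-like cells (142 ± 31.7 CPM) in 17 of 17 dogs, and naive CD8 T cells were lowest at 31.4 ± 14.1 CPM. A UMI of GATA3 was found in 64.4 ± 10.3% of gd T cells, 38.1 ± 7.31% of Th2-like and 31.2 ± 5.74% of Treg cells.

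In gd T cells against other T cells (5 dogs, 8.38% of genes called), GATA3 rose by 2.77 ± 0.11 (adjusted p = 2.53e-23 by edgeR, 5 of 5 dogs), the sole factor higher, and 4 were lower. The study had identified its gd T cells in these dogs by GATA3 and TRDC, and the naming list came from those cells. High GATA3 in this class was thus set in advance, and its p is no support for the name. RORA fell to 21.9 ± 15.9 CPM against 383 ± 151 (-4.18), and its share of positive gd T cells was 2.48%, against 0.848% of B cells and 3.47% of monocytes. LEF1 fell by 2.51. IKZF2 (-0.40), TCF7 (0.25) and SOX5 (0.22) did not pass, and FOXP3 had no UMI. In healthy dogs only, of which just 3 had enough gd T cells, IKZF2 was called lower (-0.63, adjusted p = 0.00924 by edgeR). TBX21 had 1 UMI in all gd T cells of these dogs, 30.1-fold less than in other T cells (counting interval 5.39 to 1189), and EOMES had none, at least 4.8-fold lower against a floor of 3 counts over the group. Of other regulators in the contrast, TOX2 (3.19 ± 0.17) and SOX4 (3.02 ± 0.53), both of the high mobility group family, were higher, and MYB was at 0 in gd T cells and at least 4.03-fold lower.

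Th2-like against other CD4 T cells (17 dogs, 9.33% of genes called) likewise left GATA3 as the single factor higher, by 1.24 ± 0.05 in 17 of 17 dogs. TBX21 (-1.89), FOXP3 (-1.86), SOX5 (-1.37), IKZF2 (-0.96) and TCF7 (-0.64) were lower, and EOMES had 2 UMIs in Th2-like cells, 8.63-fold lower in CPM (interval 2.35 to 72.0). RORA (0.25) and LEF1 (-0.47) stayed under the fold threshold, which LEF1 passed with the clusters of low CD3E included (-0.60). The SOX5 call was lost without OS2 (adjusted p = 0.0103 by edgeR), and in healthy dogs only SOX5 was at -0.59 (adjusted p = 0.412). In healthy dogs only the calls of TBX21 (-1.99, adjusted p = 0.0108), EOMES (0.0372) and FOXP3 (0.0217) were lost too. The fitted folds of these 3 were no smaller there than over all dogs. Of 15 listed genes of the lineage programs 12 were tested, with 1 higher and 3 lower. CCR4, a chemokine receptor of Th2 and Treg cells, rose by 2.06, while IL23R (-3.90) and CXCR3 (-1.59) fell and IFNG was at 0, at least 3.11-fold lower. The Th2 cytokine IL5 had 3 UMIs in Th2-like cells, at 0.197 CPM against 0.272, and IL4 (-0.43) was not called. Even so, 19.9% of Th2-like cells held UMIs of both GATA3 and RORA, 30.0% of RORA without GATA3, TBX21 or FOXP3, and 19.2% of GATA3 alone among these 4.

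RORA was broad among antigen-experienced cells. Th17-like cells ranged from 540 CPM over a median of 771 to 1567 in H2 (850 ± 263, n = 17), and each step down the order to memory CD8 T cells (847 ± 268, n = 10), NK cells (716 ± 163, n = 5) and Th1-like cells (572 ± 222) stayed within its spread over dogs. Naive CD8 (78.2 ± 21.0 CPM), naive CD4 (74.7 ± 21.5) and DN T cells (60.8 ± 26.1) held far less. By share of cells, memory CD8 T cells led with 74.3 ± 11%, against 0.848% of B cells.

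In Th17-like against other CD4 T cells (7.32% of genes called), RORA rose by 1.29 ± 0.04 and IKZF2 by 1.07 ± 0.07, and LEF1 (-1.42) and TCF7 (-1.08) fell. TBX21 (0.65), EOMES (-0.70), GATA3 (0.05), FOXP3 (-0.12) and SOX5 (-0.30) did not pass, though TBX21 was called in healthy dogs only (1.43, adjusted p = 0.00147). The interleukin-23 receptor IL23R rose by 4.13 ± 0.18, IL17F by 4.43 ± 0.71 and CCL20 by 2.90 ± 0.91, the last 2 at means of 1.13 and 0.706 CPM with a higher value in 7 of 17 dogs each. TNFRSF18 (-1.39) fell, and the other 8 of 12 genes of the programs tested were not called. BACH2, a repressor of effector genes, fell by 2.17.

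Th1-like against other CD4 T cells (6.84% of genes called) gave 3 factors higher and 3 lower. EOMES was 4.05 ± 2.09 CPM against 0.533 ± 0.303 (2.75 ± 0.27, adjusted p = 4.04e-12, 17 of 17 dogs), TBX21 5.57 ± 2.85 against 2.14 ± 0.938 (1.47 ± 0.21, 15 of 17 dogs) and RORA 572 ± 222 against 326 ± 102 (0.73). LEF1 (-1.60), IKZF2 (-1.15) and FOXP3 (-1.34, adjusted p = 0.00458) were lower. The FOXP3 call was lost without H1 (adjusted p = 0.0204), OS2 (0.0171), OS4 (0.0106) or OS10 (0.0145), and under 8 other alternatives. GATA3 (-0.33) and TCF7 (-0.38) stayed under the fold threshold, and SOX5 (0.06) did not pass. ZBTB16 (PLZF, known from innate-like T cells) rose by 2.06 and MYB fell by 2.85.

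FOXP3 was rare but placed. Its level in Treg cells was 7.07 CPM in the lowest, 11.8 in the median and 18.0 in the highest of 17 dogs (12.0 ± 3.06 CPM), above Th17-like cells (1.75 ± 1.64 CPM) in 17 of 17 dogs, and no UMI fell in memory CD8, DN T, gd T or NK cells, where the thinned counts allow shares of up to 0.508%, 0.321%, 0.769% and 0.769%. Only 2.09 ± 1.18% of Treg cells showed a UMI at 2000 UMIs per cell, yet this share was above that of B cells in 16 of 17 dogs. Of 78 cells with a FOXP3 UMI, 53 (67.9%) were Treg cells. At this depth a Treg cell without FOXP3 UMIs cannot be told from a cell without the transcript.

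IKZF2 had several high classes. NK cells held 821, 889, 954, 969 and 1130 CPM (953 ± 115), memory CD8 T cells 852 ± 146 CPM, Treg cells 746 ± 229 CPM and effector CD8 T cells 496 ± 316 CPM, and the steps among the last 3 stayed within their spread. The effector values were the widest, from 67.3 CPM in OS4 over a median of 439 to 1497 in OS3. Naive CD4 T cells were lowest at 22.4 ± 18.0 CPM. By share, 83.4 ± 8.84% of NK cells had a UMI against 2.31% of B cells and 2.53% of monocytes.

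In Treg against other CD4 T cells (10.9% of genes called) FOXP3 rose by 4.16 ± 0.21, IKZF2 by 3.11 ± 0.06 (746 ± 229 against 82.9 ± 23.0 CPM) and GATA3 by 1.08 ± 0.05, each in 17 of 17 dogs. LEF1 (-1.35) and TCF7 (-0.99) fell, and EOMES had 3 UMIs in Treg cells, 5.56-fold lower in CPM (interval 1.87 to 27.3). RORA (0.30) stayed under the fold threshold, and SOX5 (-0.77) and TBX21 (0.02) did not pass, though SOX5 was called with doublets kept (-1.23, adjusted p = 0.00944). The EOMES call was lost in healthy dogs only (adjusted p = 0.151) and under 4 other alternatives. Among other regulators TOX2 rose by 2.53 while ZBTB16 (-2.17) and SATB1 (-1.94), a chromatin organizer repressed by FOXP3, fell. Of 12 genes of the lineage programs tested, IL10 (4.31 ± 0.54, higher in 10 of 17 dogs), TNFRSF18 (2.72 ± 0.08) and CCR4 (2.15 ± 0.24) rose. IL23R, at 2.66 against 5.15 CPM, fell, and the rest, ENTPD1 among them, were not called.

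Treg cells fell into 2 clusters that could be compared in 16 dogs, as a description without a test because they were formed from these cells. The smaller (926 cells) held GATA3 at 361 ± 85.2 CPM against 140 ± 29.3 in the larger (1829 cells), RORA at 678 against 247, FOXP3 at 17.2 against 7.01 and IKZF2 at 841 against 645 CPM. The larger cluster held more LEF1 (745 against 192 CPM) and TCF7 (140 against 18.3 CPM) in 16 of 16 dogs. CCR7, a lymph node homing receptor, followed LEF1 and TCF7 with 153 against 22.4 CPM, and MAF (455 against 153 CPM) and CTLA4 (479 against 310 CPM) were higher in the smaller cluster.

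LEF1 was highest in naive cells among the 13 classes with at least 4 dogs. In naive CD4 T cells it ranged from 1280 CPM over a median of 2101 to 4526 in H2 (2175 ± 734, n = 17) and exceeded naive CD8 T cells (1894 ± 715) in 15 of 17 dogs. TCM cells (1683 ± 487), DN T cells (1352 ± 338) and Th2-like cells (898 ± 262) came next, and the level declined to 129 ± 58.7 CPM in effector CD8 T cells (3.70 in OS4) and 30.5 ± 25.7 CPM in NK cells. A UMI was present in 94.2 ± 3.97% of naive CD4 T cells.

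TCF7 was flatter, and among the 13 classes with at least 4 dogs the highest means were in DN T and gd T cells. These means cover different dogs, and in the 5 dogs with both classes gd T cells exceeded naive CD4 T cells in only 2. DN T cells held 116 CPM in the lowest, 292 in the median and 384 in the highest dog (271 ± 75.4, n = 13) and gd T cells 174, 197, 208, 248 and 351 CPM (236 ± 69.7), but these, naive CD4, TCM, TEM and naive CD8 T cells (190 ± 50.6) were neighbors that did not differ beyond their spread. The next step down, from naive CD8 to Th1-like cells (128 ± 31.8 CPM), held in 17 of 17 dogs. Effector CD8 T (35.7 ± 18.2) and NK cells (19.9 ± 13.1 CPM) were lowest, and the share of NK cells with a UMI, 2.31%, was below the 4.84% of B cells.

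Naive CD4 against other CD4 T cells (16.9% of genes called) had LEF1 (1.72) and TCF7 (0.73) higher and 6 factors lower, namely GATA3 (-1.42), RORA (-2.65), IKZF2 (-3.32), FOXP3 (-3.78), TBX21 (-4.26) and EOMES with 2 UMIs, 34.4-fold lower in CPM (interval 9.35 to 287), while SOX5 (0.33) did not pass. Naive CD8 against other CD8 T cells (23.2% of genes called) repeated the split, with LEF1 (3.97) and TCF7 (2.36) higher and TBX21 (-6.89), EOMES (-4.89), IKZF2 (-3.65), RORA (-2.26), SOX5 (-1.76) and GATA3 (-0.85) lower and FOXP3 not tested. ZBTB16 (-6.00) and MAF (-5.12) fell in naive CD4, and ZEB2 (-6.59), ZNF683 (-6.30) and NFIL3 (-5.63), regulators of effector and tissue-resident cells, in naive CD8 T cells.

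In DN T cells EOMES and TCF7 were the only factors called higher, while TBX21, the other factor of the cytotoxic side, was lower. Against other T cells (13 dogs, 10.4% of genes called), EOMES rose by 1.12 ± 0.21 (12 of 13 dogs) and TCF7 by 0.83 (13 of 13 dogs), while RORA (-2.58), IKZF2 (-1.90), GATA3 (-1.67) and SOX5 (-1.26) fell and TBX21 had 2 UMIs, 34.9-fold lower in CPM (interval 9.65 to 288). LEF1 was higher in 12 of 13 dogs but by only 0.31, under the fold threshold. FOXP3 had no UMI in DN T cells and was not called. The SOX5 call was lost in healthy dogs only (-0.46, adjusted p = 0.591), without correction across dogs (-0.81, 0.0639), with the held-out genes in clustering (0.0109), with edgeR's filter by expression (0.0122), and without OS5 (0.0217) or OS6 (0.0292). MYB, a factor of progenitor-like lymphocytes, was 117 ± 46.7 CPM in DN T and 5.28 ± 3.84 in other T cells (4.49 ± 0.12, 13 of 13 dogs), ZEB2 fell by 4.37, and ZNF683 was at 0, at least 17.3-fold lower.

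SOX5 was higher in cells outside this compartment. Monocytes held 107 ± 39.8 and B cells 91.2 ± 50.7 CPM, while all 13 T and NK classes with at least 4 dogs stayed at or below 10.6 ± 7.98 CPM (effector CD8 T cells), and no neighbors in the order differed beyond their spread. The share of positive cells in those classes, 1.69 ± 1.26% at most, was below the 9.63 ± 3.70% of B cells and 17 ± 4.67% of monocytes.

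The exception was the CD8+ gd T class, with enough cells in OS5 (76 cells) and OS6 (62 cells) alone. SOX5 stood at 290 CPM in OS5 and 365 CPM in OS6, with a UMI in 48 of 231 thinned cells (20.8%) over all dogs. These cells made up 0.585% of the cells and 14.2% of the SOX5-positive ones. IKZF2 was 3498 CPM in OS5 and 2240 in OS6, LEF1 1688 and 2091 CPM, and TCF7 475 and 437 CPM, in the same order of dogs. With the limit lowered to 10 cells, 7 dogs could be compared with other CD8 T cells (10.6% of genes called), and 8 factors were called. SOX5 (5.27 ± 0.25), IKZF2 (2.78), TCF7 (1.58), GATA3 (1.33) and LEF1 (0.99) were higher, and TBX21 (-3.85), RORA (-1.69) and EOMES (-1.43) lower. These cells also held the most members at once, 2.94 per cell against 1.54 over all T and NK cells, 0.195 in B cells and 0.227 in monocytes.

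Whether factors shared cells was asked with pairs, comparing the cells with UMIs of both to the number from the product of the 2 shares within each dog, first over all cells and then within classes. These ratios are descriptions and carry no test. TBX21 and EOMES met in 79 cells, 2.45 times the number from all cells, but 0.962 times the 82.1 expected within classes. FOXP3 with IKZF2 went from 2.70 to 1.26 (12 of 16 dogs above 1), GATA3 with FOXP3 from 1.82 to 1.08, and IKZF2 with SOX5 from 1.84 to 1.07. LEF1 and TCF7 met in 6222 cells at 1.31 and still 1.05 within classes, in 17 of 17 dogs. From unthinned counts the ratio within classes was 1.04 for TBX21 with EOMES (429 cells, above 1 in 11 of 17 dogs), 0.992 for IKZF2 with SOX5 and 1.01 for TBX21 with RORA, each on the other side of 1, and 1.45 for FOXP3 with IKZF2 (16 of 17 dogs), 1.21 for GATA3 with FOXP3 and 1.05 for LEF1 with TCF7 (17 of 17 dogs).

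The named opposed pairs moved toward 1 within classes in the same way. TBX21 with GATA3 stood at 0.678 over all cells and 0.965 within classes, TBX21 with TCF7 at 0.347 and 0.916, and EOMES with TCF7 at 0.463 and 1.04. TBX21 with RORA went from 1.15 to 0.974 and GATA3 with RORA from 1.15 to 1.03. The other 26 pairs ran from 0 (EOMES with FOXP3) to 2.86 (TBX21 with FOXP3, 2 cells) within classes, 8 of them above 1, and 3 had fewer than 5 expected cells. Both ends of this range were among those 3, at 0.076 and 0.699 expected cells, too few to read. Among the 26 pairs FOXP3 with LEF1 stayed below 1, at 0.641 over all cells and 0.746 within classes (4 of 16 dogs above 1). Unthinned it was 0.915 and 0.914. FOXP3 with TCF7 was at 0.652 and 0.845, and unthinned at 0.571 and 0.693 (1 of 17 dogs above 1). Within the Treg class both GATA3 with RORA (399 cells against 331 expected, 1.21) and LEF1 with TCF7 (267 against 201, 1.33) met more often in 17 of 17 dogs, a class made of the 2 clusters above.

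**Figure D4:**
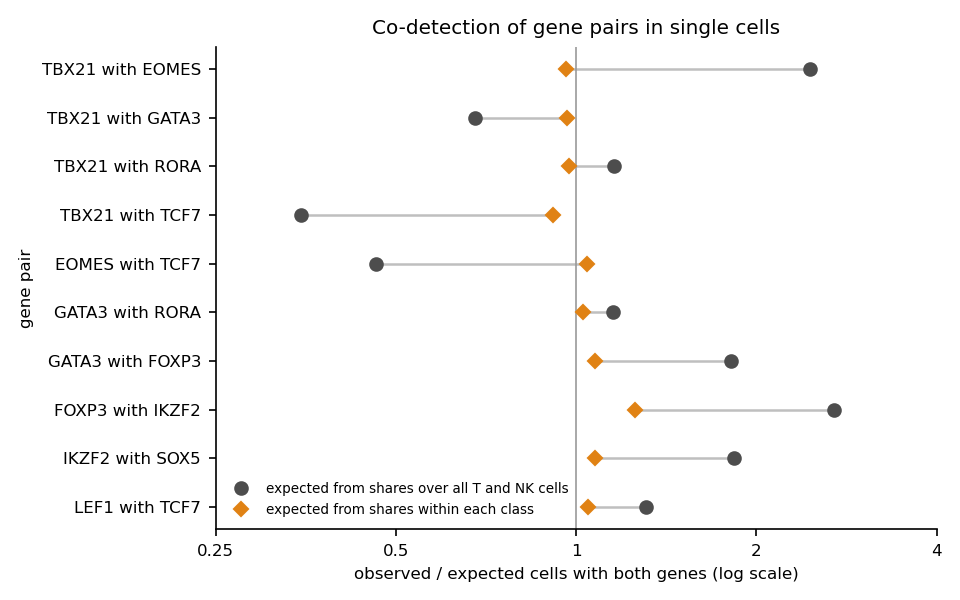
Observed over expected number of cells with UMIs of both factors of each named pair, over all T and NK cells and within dog and class, where 1 is the number from the product of the shares. Most pairs move toward 1 within classes, as TBX21 with EOMES from 2.45 to 0.962, and LEF1 with TCF7 remains at 1.05.

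Clusters without a class name carried their own mixtures, given as pooled CPM with exact Poisson intervals for counting error. A CD3E-poor cluster of 137 cells (CD3E 78.8 CPM) held GATA3 at 495 (452 to 542), RORA at 616 (567 to 667) and IKZF2 at 705 CPM (653 to 760) with IL17RB at 382, CRLF2 at 322 and IL1RL1 at 172 CPM, receptors of epithelial alarmins. A cluster of 34 CD3E-rich cells without CD4 had IL23R at 1310 CPM beside RORA at 1645, IKZF2 at 1474 and ZBTB16 at 970 CPM, with LEF1 at 36.8 CPM. A cluster of 545 cells with little CD4 (24.4 CPM) held ZBTB16 at 873, RORA at 725, GATA3 at 381 and LEF1 at 981 CPM, and almost no TBX21 (0.284 CPM). A cluster of 1123 cells with CD4 at 170.1 CPM, placed with CD4 T cells, stood highest for the CD8 memory and CD8 effector lists and had CCL5, GZMK, GZMB and CD8A (37 CPM) among its leading genes, and whether these were CD4 T cells or a mixture with CD8 T cells was not tested. Its TBX21 was 11.8 (9.18 to 15) and EOMES 7.43 CPM.

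For each factor the genes most like it were those with the highest Pearson r over the means of 13 classes, among 8532 genes and with no p, as classes share dogs and libraries. For TBX21 they were BCL2A1, CAT and FAM53B, and for EOMES SLAMF7 and CDK17 beside ENSCAFG00000046308. For GATA3 they were CASS4 and RAB3IL1 beside ENSCAFG00000041930, and for RORA LYSMD2, ALDH3A2 and RMDN2. KRT27 and DBX2 beside ENSCAFG00000032005 led for FOXP3, NHLRC2, GLRX2 and CST7 for IKZF2, HADH, CTPS1 and TRIM22 for LEF1, HHAT and DCLK2 beside ENSCAFG00000025115 for TCF7, and BNC2, EPS8 and ISCU for SOX5. The r of the first in each list lay between 0.920 (SOX5 and BNC2) and 0.979 (TBX21 and BCL2A1).

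Of 39 other regulators of lymphocyte fate that were listed, 36 had an entry. In CD8 against CD4 T cells 8 were higher and 10 lower of 35 tested, with ZEB2 (5.58) among the higher and TOX2 (-3.13) among the lower. Of all genes tested there, 7.96% were called higher and 7.53% lower. Treg cells had 8 higher and 5 lower of 35 tested, Th17-like cells 9 and 7, Th2-like cells 6 and 8, and Th1-like cells 3 and 8. Shares of all genes called higher and lower were 4.75% and 6.17% in Treg and 3.14% and 4.18% in Th17-like cells. They were 4.51% and 4.82% in Th2-like and 2.61% and 4.23% in Th1-like cells. In gd T cells 6 were higher and 7 lower of 35 (all genes 3.74% and 4.64%), and in DN T cells 5 and 9 (2.94% and 7.50%). NK cells had 4 and 7 of 34 (2.82% and 2.94%), with BCL11B (-2.31), BACH2 (-2.16) and MAF (-2.01) lower. TOX2 was lower in Th2-like cells (-2.38), and SOX4 was called lower in Th1-like, Th2-like and Th17-like cells, with 1, 1 and 2 UMIs there. Naive CD4 T cells had 13 lower and 4 higher, where 10.8% and 6.08% of all genes tested were called lower and higher, and naive CD8 T cells 15 and 7, where these shares were 13.8% and 9.44%. Effector against memory CD8 T cells gave 5 higher, among them ZNF683 (2.53) and ZEB2 (1.67), and 3 lower, among them BACH2 (-1.13), of 33 tested. There 2.25% of all genes tested were called higher and 1.30% lower. Of the 15 genes of the lineage programs, CD8 against CD4 T cells had 1 higher and 4 lower, the latter led by CCR4 (-4.37), TNFRSF18 (-4.30) and IL10, with 1 UMI in CD8 T cells. Naive CD4 T cells had 0 higher and 7 lower, with IL23R at 2 UMIs, CCR4 at 1 and IFNG at 0, and naive CD8 T cells 0 and 2, with IL23R and IFNG at 1 UMI each. Th1-like cells had CXCR3 higher (1.47) and CCR4 (-2.23) and TNFRSF18 (-1.53) lower. The rest of the 12 program genes tested there, IFNG among them, were not called. In gd T cells TNFRSF18 was higher (2.85) and IL23R, with 2 UMIs, lower, and in DN T cells ENTPD1 was higher (2.24, in 6 of 13 dogs) and IL23R, with 0 UMIs, and TNFRSF18, with 1, lower.

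The disease left no called difference in these genes. In all T and NK cells (0.00664% of genes called) 0 of 9 factors were called between OS and healthy dogs by edgeR or by DESeq2. By edgeR 0 of 9 had an unadjusted p under 0.05, against 588 of all 15070 genes tested, so the factors were near that share. Log2 fold changes ran from -0.20 to 0.85. The groups overlapped for all 9 factors, which was not counted over all genes. GATA3 was 106 ± 23.0 CPM in OS and 102 ± 10.6 in healthy dogs, TBX21 18.9 ± 11 and 19.7 ± 7.06, and FOXP3 1.34 ± 0.451 and 1.07 ± 0.294 CPM. The log2 fold changes of EOMES (-0.20), RORA (-0.11), IKZF2 (0.16), LEF1 (-0.13) and TCF7 (-0.16) were likewise not called. On simulated counts the test recovered 56% of genes changed 2-fold between the groups in CD4 T cells and 25% in DN T cells, so a change of that size could be missed. These genes were drawn at random from all genes tested, so the percentages are not recovery rates of the 9 factors. The same held with 0 calls and 0 unadjusted p under 0.05 in CD4 T (9 tested), CD8 T (8), Treg (8) and DN T cells (7, in 7 healthy and 6 OS dogs), where 0% of all genes were called. Over all genes, unadjusted p by edgeR was under 0.05 for 578 of 14334 in CD4 T and 606 of 13469 in CD8 T cells. It was so for 475 of 11100 in Treg and 573 of 9433 in DN T cells. In Treg cells FOXP3 was 12.9 ± 2.59 against 10.6 ± 3.34 CPM (0.34 ± 0.22).

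SOX5 had the largest difference in all T and NK cells (0.85 ± 0.45, unadjusted p = 0.0718 by edgeR), and it was not called. OS5 stood at 23.9 and OS6 at 18.2 CPM, the dogs with the most CD8+ gd T cells. The difference was 0.28 with those cells left out, an exclusion added after seeing the data. Whether those cells account for the difference was not tested. With the limit lowered to 10 cells, 0 factors were called in gd T (0% of genes called, 5 healthy and 6 OS dogs) and NK cells (0.024%, 5 and 9 dogs), where SOX5 in gd T cells was at 2.68 ± 0.74 (adjusted p = 0.865).

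**Figure D5:**
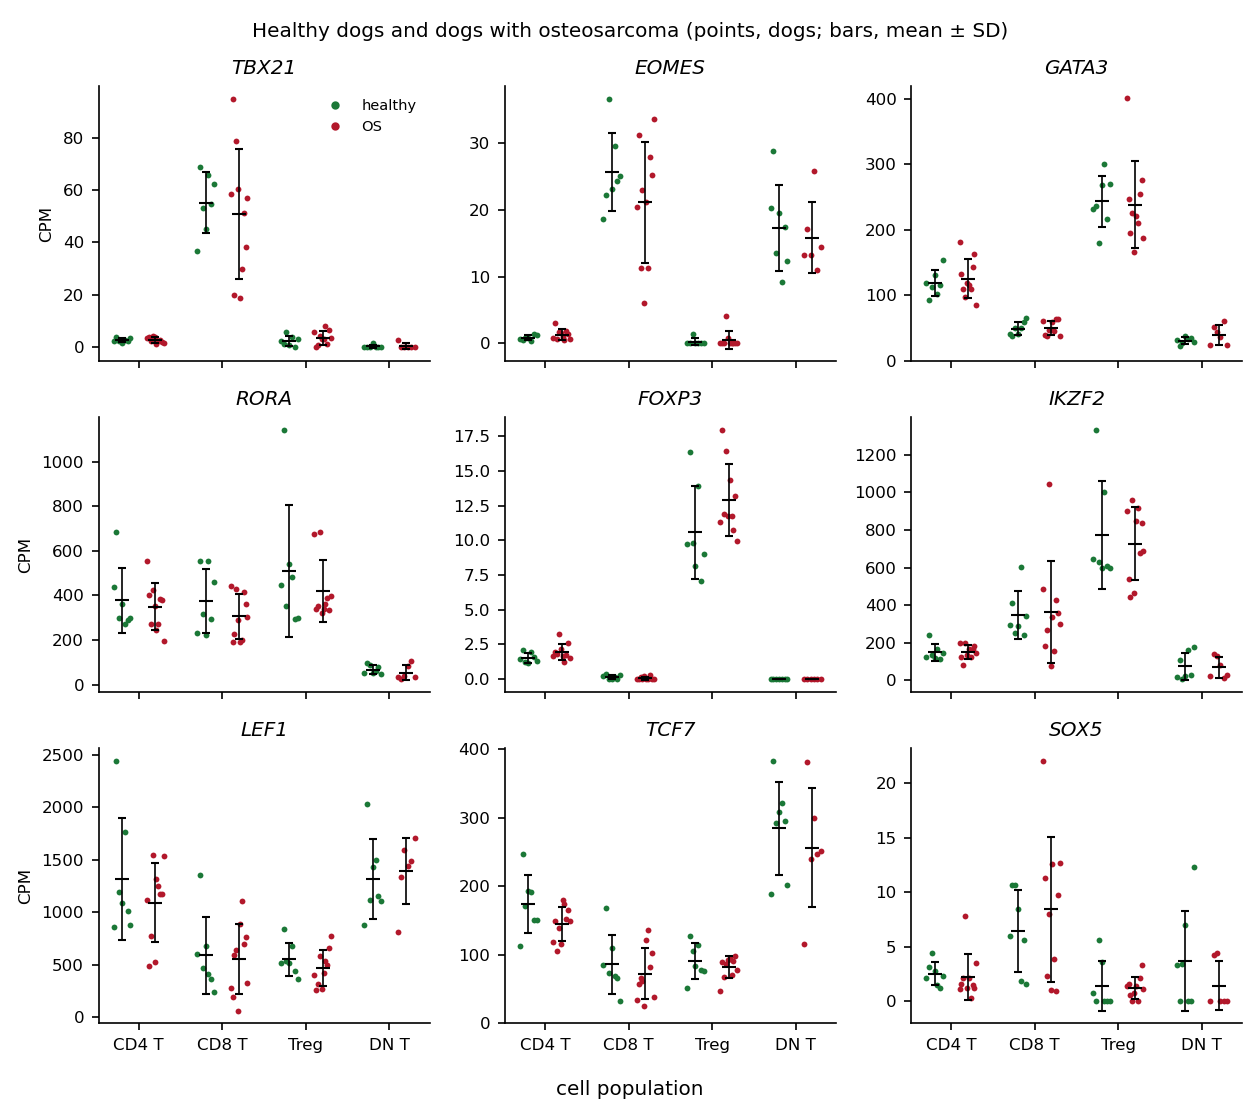
Level of each transcription factor (CPM, per-dog sums) in CD4 T, CD8 T, Treg and DN T cells of healthy and OS dogs, where each point is a dog and bars are the mean ± SD. The groups overlap for every factor tested in each population, which was not counted over all genes. H2 stands above the other healthy dogs in RORA in Treg cells (1143 CPM).

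Nor did a class contrast differ between the groups past the threshold (0 factors and 0% of all genes called in either interaction). For CD8 against CD4 T cells EOMES had an interaction of -0.94 (unadjusted p = 0.022), and for Treg against other CD4 T cells GATA3 had -0.20 (p = 0.042) and IKZF2 -0.31 ± 0.10 (p = 0.0038, adjusted p = 0.85). These are single unadjusted values of edgeR's test among 9 genes tested in each. Over all genes, 622 of 14957 and 635 of 14334 had an unadjusted p under 0.05 in these 2 tests.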

How the data were processed

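UMI counts per gene and cell were deposited by the authors as 1 matrix per dog, made with Cell Ranger 7.0.0 from 3' libraries on CanFam3.1. The study aligned reads with and without introns, and which of these was deposited is not given in the sources used here, which bears on levels of genes with long introns. The 9 factors and all gene lists were chosen with earlier results of these data known.

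Cells with over 200 and under 4500 genes, over 500 and under 20000 UMIs and under 10% mitochondrial counts were kept (84345 of 93013), and 3938 doublets with the highest scores were removed. Cells were clustered in 2 steps (2000 variable genes, 30 principal components, correction across dogs, Leiden method at resolution 1.0) and clusters named from marker lists that the study had chosen on these dogs. Thresholds for naming were chosen with the clusters in view. Counts were summed per dog and class (at least 25 cells per dog and side, 4 dogs, 10 counts per gene) and tested with edgeR 4.0.16 (quasi-likelihood, TMM, Benjamini-Hochberg over all genes tested) in R 4.3.3, with dog as a block between classes and without one between OS and healthy dogs. The SE of a log2 fold change was not estimated separately. It is the absolute log2 fold change divided by the square root of edgeR's F statistic. Depth was 7740230 to 56510134 UMIs per dog. On simulated counts the test called 61% of genes changed 2-fold and 82% of those changed 4-fold for CD8 against CD4 T cells, 40% and 68% for NK against CD8 T cells, 56% and 74% for effector against memory CD8 T cells, 56% and 73% for OS against healthy in CD4 T cells, and 25% and 75% in DN T cells. The changed genes were drawn at random from all with at least 10 counts. Replicates are separate dogs.

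All 9 factors were to be named in every comparison, which was done between classes and over all T and NK cells of OS and healthy dogs, and otherwise by counts, and of other regulators and program genes the 3 with the largest change among those called in a contrast, apart from results that are not reported here. Neighbors in an order differed beyond their spread where the mean difference over dogs exceeded 1 SD. Floors are 3 counts, and intervals cover counting error only. Alternatives were DESeq2 1.42.0, other size factors and filters, no block, 10 cells, resolutions of 0.5 and 1.5, held-out genes in clustering, no correction, doublets kept, healthy dogs only, each dog left out, age (from the study's patient tables) as a covariate, unthinned counts and thinning to 1000 UMIs. Fits in healthy dogs only were run with as few as 3 dogs, as for gd T and NK cells. Including the clusters of low CD3E and leaving out CD8+ gd T cells were added after seeing the data. Protein and promoter sequences were not used here.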

Additional observations from a re-analysis of the deposited data

Results flagged for a closer look

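Of 82 sets of dogs compared for each factor within a group, 9 held a dog whose gap to its nearest neighbor exceeded Dixon's critical share of the range (0.568 for 7 dogs, 0.466 for 10). Chance flags about 1 in 20 of independent sets of normal values. These sets overlap, as all T and NK cells include the other populations and CD4 T cells include Treg cells, so the 9 cannot be set against that rate. H2, a healthy dog, accounted for 6 of the 9 flags, in RORA, LEF1 and IKZF2 over such overlapping populations. Its RORA was 613 CPM in all T and NK cells against 286 to 386 in the other healthy dogs, 685 CPM in CD4 T cells against 270 to 439, and 1143 CPM in Treg cells against 296 to 542. Its LEF1 was 2044 CPM in all T and NK cells against 612 to 1111 and 1348 CPM in CD8 T cells against 240 to 673, and its IKZF2 was 240.0 CPM in CD4 T cells against 113 to 165. Leaving out H2 moved no count of called factors beyond 1.5 times.

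OS3, the smallest library with 1332 barcodes, had SOX5 at 7.79 CPM in CD4 T cells against 0.303 to 3.49 in the other OS dogs, and IKZF2 at 1042 CPM in CD8 T cells against 78.9 to 486. OS1 had GATA3 at 400.3 CPM in Treg cells against 167 to 277. The causes of these values were not tested.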

How the results depend on the processing

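Of 190 counts of called factors under alternatives other than leaving out a dog, 188 stayed within 1.5 times, and so did 233 of 233 with a dog left out. The exceptions were NK against CD8 T cells with no replicate block, the dog not being a term, where 3 factors were called (EOMES at adjusted p = 0.126 and RORA at 0.0119 by edgeR were lost), and Th2-like cells in the 7 healthy dogs only, with 3 factors called. With each dog left out, calls ran from 8 to 8 for CD8 against CD4 T cells, 4 to 5 for NK, 5 to 5 for gd T, 6 to 7 for DN T, 8 to 8 for naive CD4, 8 to 8 for naive CD8, 5 to 6 for Th1-like, 6 to 7 for Th2-like, 4 to 4 for Th17-like, 6 to 6 for Treg, 3 to 3 for effector against memory, and 0 to 0 in every comparison of OS with healthy dogs. Single calls were lost in 33 of 865 alternative values other than those with a dog left out and none reversed, and 4 uncalled factors were called under an alternative. Without the block EOMES in gd T, Th2-like and Treg cells, SOX5 in DN T and Th2-like cells, FOXP3 in Th1-like cells and IKZF2 in effector against memory cells were also lost. In healthy dogs only EOMES in NK (3 dogs) and Treg cells, SOX5 in DN T and Th2-like cells, FOXP3 in Th1-like cells and TBX21, EOMES and FOXP3 in Th2-like cells were lost. Without correction across dogs EOMES in NK, SOX5 in DN T and FOXP3 in Th1-like cells were lost, and with doublets kept RORA in NK, FOXP3 in Th1-like, EOMES in Treg and IKZF2 in effector against memory cells. With DESeq2 the lost calls were SOX5 in DN T (adjusted p = 0.0720), FOXP3 in Th1-like (0.0131) and EOMES in Treg cells (0.0138). edgeR's filter by expression left 5 called factors of few counts untested.

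Healthy and OS dogs share replicate numbers 1 to 7. Correlations of the deviations of same-numbered dogs ran from -0.437 to 0.106. Whether the numbers reflect shared processing was not tested, and the dogs were treated as unpaired. With the number as a block, 0 factors were called in any comparison of OS with healthy dogs.

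Shares of cells scaled with depth. Unthinned and at 1000 UMIs they were 30.7% and 7.73% for TBX21, 92.3% and 47.6% for GATA3, 90.7% and 53.7% for RORA, 93.0% and 56.5% for IKZF2, 98.3% and 81.4% for LEF1, and 68.5% and 25.4% for TCF7. Unthinned they were 21.5% for EOMES, 5.95% for FOXP3 and 3.52% for SOX5. The class with the highest share changed with depth for TBX21 (NK at both other depths), EOMES (NK at 1000 UMIs), LEF1 (CD8 naive unthinned) and RORA (Th17-like unthinned).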
